A study of Homo sapiens with 3 samples.

Results

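The mRNA levels of 10 genes of the acute-phase response were followed in a human hepatocellular carcinoma line and 2 of its subclones. The genes encode the serum amyloid A proteins (SAA1 and SAA2), C-reactive protein (CRP), haptoglobin (HP), orosomucoid 1 (ORM1), lipopolysaccharide binding protein (LBP), the 3 chains of fibrinogen (FGA, FGB and FGG) and alpha-1-antitrypsin (SERPINA1). They were taken by gene symbol from the 16149 genes listed in at least 1 library, with absence from a library read as 0. CRP was listed in none. The set was chosen from the RPKM values of these libraries and their ratios over the parent, with earlier results known, so the levels and ratios below are descriptions and carry no test.

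The parent is HCCLM3 by the labels and HCCLM3-R, its derivative that stably makes red fluorescent protein, by the study. The labels give the parent a low ability to metastasise, subclone1 a higher ability directed to the lung, and subclone2 an ability directed to both the lung and the celiac lymph node, whereas the methods of the study give HCCLM3-R a high metastatic potential. The subclones of the study were grown from single cells of lung or lymph node metastases of HCCLM3-R xenografts in nude mice, so each sequenced subclone stands for 1 clone, and the labels give neither a clone name. All 3 lines were grown in DMEM culture medium with no agent named in the labels, and each was sequenced as 1 library from total RNA. With 1 library per line there was no replicate and no test between lines, and every interval below is a 95% interval that covers counting error alone.

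The acute-phase response is the change in plasma protein output by which the liver answers infection and injury. Interleukin-6 acts through the shared receptor chain gp130 and the factor STAT3, interleukin-1 and tumour necrosis factor act through NF-kB, and the C/EBP factors act at many of the same promoters. Positive acute-phase proteins are made in larger amounts in this response, whereas negative ones, such as albumin and transferrin, are made in smaller amounts. Fibrinogen is assembled in hepatocytes from alpha, beta and gamma chains, encoded by FGA, FGB and FGG, and is secreted as the precursor of fibrin clots. Hepatoma lines are a common model of this response.

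The libraries held 4488825 reads in the parent, 4609696 in subclone1 and 4725150 in subclone2, as recovered from the RPKM (reads scaled to the length of the gene and the size of the library), and they listed 14703, 14900 and 14931 genes. Of 9 markers of hepatocytes or hepatocellular carcinoma, 7 were listed in the parent, 7 in subclone1 and 8 in subclone2, and their summed RPKM of 2584, 2783 and 2885 came mostly from the keratins KRT8 and KRT18. Against the liver label, TTR was at 0 in the parent and subclone1, and ALB (albumin) was at only 2.46 RPKM in the parent. ALB was higher in the subclones, at 49.5 RPKM in subclone1 and 68.8 in subclone2. GPC3 was not listed in any library, and whether the annotation that was counted held it is not known. Of 8 fibroblast markers 5, 5 and 4 were listed, with summed RPKM of 15.7, 31.1 and 24.3. PDGFRA, PDGFRB and ACTA2 were not listed in any library, so no level is read for them. Of 7 leukocyte markers 4, 2 and 3 were listed, with summed RPKM of 76.6, 113 and 101, mostly from CD68. For CD3E, CSF1R and MPO, also listed in no library, no level is read either. Of 5 endothelial markers 4, 5 and 4 were listed, with summed RPKM of 5.11, 11.9 and 7.61. The fibroblast, leukocyte and endothelial sums thus had the same order of libraries as the fibrinogen genes, and a single gene gave most of each. Within the fibroblast list LUM, at 10.1, 23.99 and 21.0 RPKM, carried the sum, and COL3A1 went the other way, at 4.42, 2.21 and 0.463 RPKM. Within the endothelial list PECAM1, at 3.33, 9.81 and 4.46 RPKM, carried the sum. KDR, at 1.36, 1.94 and 3.08 RPKM, was highest in subclone2, and TEK, at 0.370, 0.0901 and 0.0439 RPKM, was highest in the parent. The part of these markers in the results was not tested.

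The regulatory DNA upstream of the fibrinogen genes is printed first, since these 3 neighbouring genes gave most of the reads of the set. Each run is the 250 bases before the annotated RNA start, from RefSeq on GRCh38.p14 and written 5′ to 3′ on the strand of the gene. Capitals mark matches to the motifs searched.
FGA, chr4:154590743-154590992, minus strand: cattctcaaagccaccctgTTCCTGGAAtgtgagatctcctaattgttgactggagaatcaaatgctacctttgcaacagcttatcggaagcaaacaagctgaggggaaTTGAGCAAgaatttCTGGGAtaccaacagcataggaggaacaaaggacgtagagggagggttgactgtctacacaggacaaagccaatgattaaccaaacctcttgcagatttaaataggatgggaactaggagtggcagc
FGB, chr4:154562730-154562979, plus strand: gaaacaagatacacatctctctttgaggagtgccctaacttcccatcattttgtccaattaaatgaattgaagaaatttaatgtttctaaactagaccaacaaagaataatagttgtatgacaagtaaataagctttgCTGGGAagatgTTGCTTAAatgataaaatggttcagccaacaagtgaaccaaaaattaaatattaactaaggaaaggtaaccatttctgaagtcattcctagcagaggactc
FGG, chr4:154612657-154612906, minus strand: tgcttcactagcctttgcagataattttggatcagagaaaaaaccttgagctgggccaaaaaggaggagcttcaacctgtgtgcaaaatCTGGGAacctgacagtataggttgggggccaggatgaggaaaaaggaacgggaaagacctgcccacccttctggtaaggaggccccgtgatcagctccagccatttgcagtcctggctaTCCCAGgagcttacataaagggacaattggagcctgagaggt

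The motifs were searched on both strands of windows that also took in the 50 bases after the start. FGA held a STAT motif (TTCNNNGAA) at 231 to 223 bases before the start and a C/EBP motif (TTGCNNAA) on the opposite strand at 141 to 134 bases before it. FGB held the C/EBP motif at 101 to 94 bases before its start. The motifs found did not overlap each other. The core CTGGGA of the type II interleukin-6 response element lay 127 to 122 bases before the start in FGA, 112 to 107 in FGB and 161 to 156 in FGG, and once more on the opposite strand of FGG at 42 to 37 bases before the start.

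How common these letters are sets the weight of such matches. Among all 35116 promoter windows of the table, CTGGGA was found in 33.3%, the TATA box TATAAA in 11.5%, the C/EBP motif in 10.5%, the STAT motif in 7.66% and the NF-kB motif GGGNNTTTC in 4.78%. The table held windows for 6 of the 10 genes, namely CRP, ORM1, FGA, FGB, FGG and SERPINA1, and none for SAA1, SAA2, HP and LBP. CTGGGA was present in 4 of these 6 genes (FGA, FGB, FGG and SERPINA1), the C/EBP motif in 2 (FGA and FGB), the STAT motif in FGA alone, the NF-kB motif in 0, and the TATA box in 2, which were CRP and ORM1 with no other match. FGB and SERPINA1 each had 2 windows, of which the first is used here. CTGGGA was added to the search after the windows had been seen. A match is a run of letters, not a site shown to be bound.

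**Figure D1:**
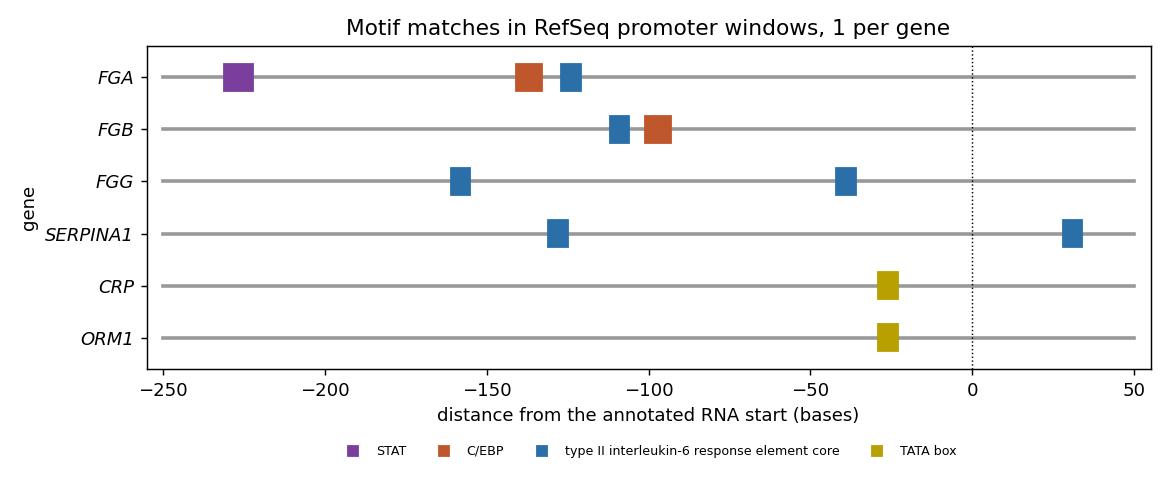
Position of motif matches, as bases from the annotated RNA start (x axis), in 1 RefSeq promoter window of each of 6 genes (rows); coloured boxes are matches on either strand. The interleukin-6 response element core (blue) appears in FGA, FGB, FGG and SERPINA1, and the STAT motif (purple) appears in FGA.

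Fibrinogen mRNA was higher in both subclones than in the parent, and highest in subclone1. The 3 chains together held 47 reads in the parent, 391 in subclone1 and 206 in subclone2. Per library total, this was 8.10-fold higher in subclone1 than in the parent (5.98 to 11.2) and 4.16-fold higher in subclone2 (3.02 to 5.85). Subclone2 stood at 0.514 of subclone1 (0.432 to 0.610). Bulk RNA of this kind does not separate a change in the share of cells that make fibrinogen from a change in the mRNA per cell.

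FGA, Entrez gene 2243, encodes the alpha chain and lies on the minus strand of chromosome 4 from 154583126 to 154590766 in the GENCODE annotation of GRCh38, a later build than that of the RPKM. In the parent it stood at 1.16 RPKM (0.697 to 1.81, 19 reads), in subclone1 at 6.53 RPKM (5.37 to 7.87, 110 reads) and in subclone2 at 4.63 RPKM (3.67 to 5.77, 80 reads). The parent lay apart from both subclones, whose intervals overlapped each other. FGA was 5.64-fold higher in subclone1 than in the parent (3.44 to 9.72) and 4.0-fold higher in subclone2 (2.40 to 6.99). Its level in subclone2 was 0.710 of that in subclone1 (0.525 to 0.955). On the scale of log2 ratios of RPKM plus 0.1, which is used from here on and which understates changes of low genes, these were 2.40, 1.91 and -0.49.

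FGB, Entrez gene 2244, encodes the beta chain and lies on the plus strand of chromosome 4 from 154562956 to 154571086. In the parent it stood at 1.66 RPKM (1.09 to 2.41, 27 reads), in subclone1 at 14.5 RPKM (12.7 to 16.4, 242 reads) and in subclone2 at 5.60 RPKM (4.54 to 6.84, 96 reads). The 3 intervals did not overlap, and FGB had the highest level of the 10 genes in each library. FGB was 8.73-fold higher in subclone1 than in the parent (5.85 to 13.5), a log2 ratio of 3.05, and 3.38-fold higher in subclone2 (2.19 to 5.39), a log2 ratio of 1.70. In subclone2 its level was 0.387 of that in subclone1 (0.302 to 0.492), a log2 ratio of -1.35. The length behind its RPKM, 3628 bases, is greater than its longest GENCODE transcript of 1975 bases, and a shorter length would raise its RPKM in every library alike without moving these ratios.

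FGG, Entrez gene 2266, encodes the gamma chain and lies on the minus strand of chromosome 4 from 154604134 to 154612967. It was close to undetected in the parent, at 0.126 RPKM from 1 read (0.0032 to 0.704), and had 4.80 RPKM in subclone1 (3.41 to 6.56, 39 reads) and 3.60 RPKM in subclone2 (2.43 to 5.14, 30 reads). Both subclones lay above the interval of the parent and overlapped each other. The ratio to the single read of the parent was 38.0 in subclone1, with an interval from 6.43 to 1538, and 28.5 in subclone2, from 4.74 to 1163, so its lower bound is the part the depth supports. Subclone2 stood at 0.7504 of subclone1 (0.450 to 1.24), a difference not detectable at this depth.

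**Figure D2:**
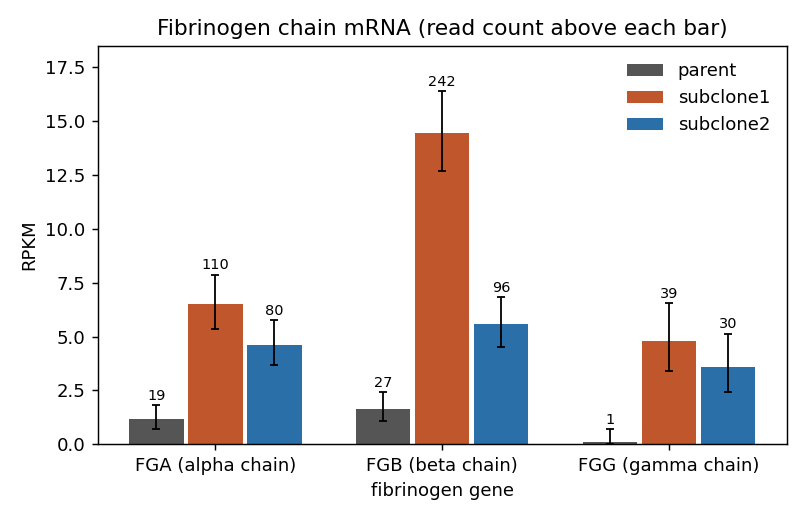
RPKM (y axis, from 0) of the fibrinogen chain genes FGA, FGB and FGG in the parent (grey), subclone1 (orange) and subclone2 (blue), 1 library each; error bars are 95% Poisson intervals and the numbers are reads. FGB stands at 14.5 RPKM in subclone1, above its 5.60 in subclone2, while FGA and FGG differ less between the subclones.

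The 3 chains enter the fibrinogen molecule in equal numbers, and their mRNA levels were not equal. In the parent, FGB made up 56.4% of the summed RPKM of the chains, FGA 39.4% and FGG 4.30%. In subclone1 the shares were 56.1% for FGB, 25.3% for FGA and 18.6% for FGG. In subclone2 they were closest to each other, with 40.5% for FGB, 33.5% for FGA and 26.0% for FGG. These shares depend on the lengths used for the RPKM, of which that of FGB is the one longer than its annotation.

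From the parent to the subclones the share of FGG was the one that grew most, on 1 read in the parent, and between the subclones the balance of the chains differed chiefly in FGB. FGB over FGA was 1.43 in the parent (0.767 to 2.72), 2.22 in subclone1 (1.76 to 2.80) and 1.21 in subclone2 (0.889 to 1.65), and the intervals of the subclones did not overlap. FGB over FGG was 3.02 in subclone1 (2.14 to 4.35) and 1.56 in subclone2 (1.02 to 2.43). FGA over FGG was 1.36 in subclone1 (0.936 to 2.01) and 1.29 in subclone2 (0.836 to 2.03), with intervals that overlapped widely. In the parent the 1 read of FGG left FGB over FGG at 13.1 with an interval from 2.16 to 537, and FGA over FGG at 9.17 with an interval from 1.46 to 381.

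SAA1 mRNA was detected in both subclones and not in the parent library. SAA1, Entrez gene 6288, encodes an apolipoprotein of high density lipoprotein that is strongly induced in the acute phase, and lies on the plus strand of chromosome 11 from 18266174 to 18269977. It was listed at 0 in the parent, at 5.12 RPKM in subclone1 (2.93 to 8.31, 16 reads) and at 4.99 RPKM in subclone2 (2.86 to 8.11, 16 reads). Against a floor of 3 reads in the parent library, which is 0.986 RPKM, SAA1 was 5.19-fold higher in subclone1 and 5.07-fold higher in subclone2. With counting error included, the intervals of the ratios to 0 reads start at 3.76 and 3.66. The subclones did not differ detectably, at a ratio of 0.976 of subclone2 over subclone1 (0.457 to 2.08). The RPKM also fit 8 reads per subclone at a length of 339 bases, which is shorter than its coding sequence of 369 bases. With 8 reads these folds would be 2.60 and 2.53, and the intervals would start at 1.66 and 1.62.

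SAA2, Entrez gene 6289, lies 17.5 kb from SAA1 on the minus strand, from 18239223 to 18248643, and encodes a second acute-phase serum amyloid A. It was listed at 0 in the parent, at 0.528 RPKM in subclone1 (0.172 to 1.23, 5 reads) and at 0.825 RPKM in subclone2 (0.356 to 1.63, 8 reads). Against the same floor of 3 reads in the parent, SAA2 was 1.62-fold higher in subclone1 and 2.53-fold higher in subclone2. The interval for subclone1 starts at 0.892, so a difference was not shown there at this depth, and that for subclone2 starts at 1.62. The length behind its RPKM, 2053 bases, is greater than its longest GENCODE transcript of 1022 bases. Read together, SAA1 and SAA2 had 0 reads in the parent, 21 in subclone1 and 24 in subclone2.

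Reads of these close copies may have been exchanged, because the handling of reads that match both is not given. The coding sequences of SAA1 and SAA2 were identical at 358 of 369 bases (97.0%), with an unbroken identical run of 186 bases, and 46.6% of the 50-base words of SAA1 transcripts also occur in SAA2 transcripts. The stretch where they can best be told apart, coding bases 230 to 304 of the GENCODE transcripts SAA1-201 and SAA2-201, is shown on the strand of each gene with the 9 differing bases in capitals.
SAA1, GRCh38 chr11:18269333-18269790 with an intron removed, plus strand: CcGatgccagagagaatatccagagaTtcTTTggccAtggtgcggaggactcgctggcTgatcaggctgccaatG
SAA2, GRCh38 chr11:18245442-18245910 with an intron removed, minus strand: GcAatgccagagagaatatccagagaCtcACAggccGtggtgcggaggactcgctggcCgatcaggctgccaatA
The constitutive family member SAA4 was not listed in any library, and its coding sequence is 73.7% identical to SAA1 with no shared 50-base word.

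CRP, a pentraxin that binds phosphocholine on microbes and damaged cells and lies on the minus strand of chromosome 1 from 159712289 to 159714589, was not listed in any library. Genes supported by a single read were listed, numbering 1181 in the parent, 1132 in subclone1 and 1181 in subclone2, so a gene listed in another library had 0 reads where it was missing. For CRP, missing from all 3, it is not known whether the annotation that was counted held the gene, and no level is read from its absence.

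ORM1 was the one binding-protein gene of the set with more than single reads, and its level did not differ detectably between the lines. ORM1, Entrez gene 5004, encodes a glycoprotein that carries basic drugs in plasma, and lies on the plus strand of chromosome 9 from 114323056 to 114326475. In the parent it stood at 0.789 RPKM (0.163 to 2.31, 3 reads), in subclone1 at 1.54 RPKM (0.564 to 3.35, 6 reads) and in subclone2 at 0.999 RPKM (0.272 to 2.56, 4 reads), and the 3 intervals overlapped widely. The ratio to the parent was 1.95 in subclone1 (0.416 to 12.04) and 1.27 in subclone2 (0.214 to 8.65). Its neighbour ORM2 had 0, 4 and 5 reads, and the pair share 94.9% of their 606 coding bases, so reads of either may have been counted for the other.

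HP and LBP were at the edge of detection. HP, Entrez gene 3240 on the plus strand of chromosome 16 from 72054592 to 72061055, encodes the haemoglobin scavenger haptoglobin and had 1 read, in subclone1 (0.148 RPKM, 0.00376 to 0.827). LBP, Entrez gene 3929 on the plus strand of chromosome 20 from 38346356 to 38377023, encodes a carrier of bacterial lipopolysaccharide to CD14 and had 1 read in subclone1 (0.119 RPKM) and 1 in subclone2 (0.116 RPKM). With at most 1 read in any library, neither gene allows a fold. HPR, which shares 95.6% of its aligned coding bases with HP, was not listed.

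SERPINA1, Entrez gene 5265 on the minus strand of chromosome 14 from 94376747 to 94390693, encodes the main plasma inhibitor of neutrophil elastase and was near 0 throughout. In the parent it stood at 0.0631 RPKM (1 read), in subclone1 at 0.246 RPKM (0.0669 to 0.629, 4 reads) and in subclone2 at 0.0599 RPKM (1 read). The ratio of subclone1 to the parent was 3.90 with an interval from 0.386 to 192, so no difference was detectable. In hepatocytes SERPINA1 is among the abundant mRNAs, which these libraries did not show.

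**Figure D3:**
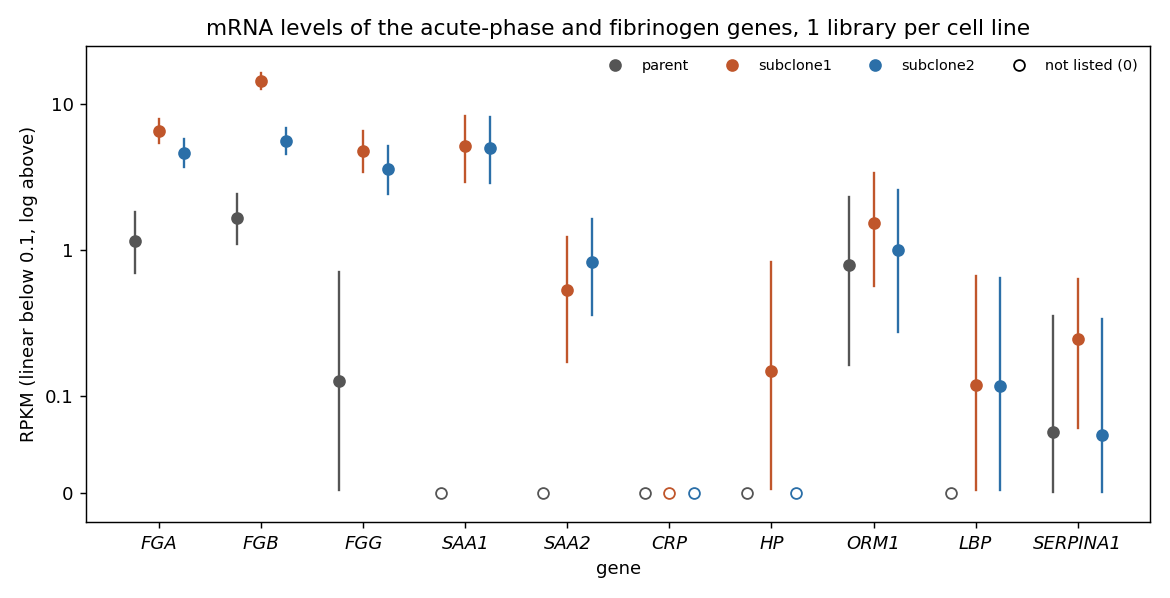
RPKM (y axis, linear below 0.1 and logarithmic above) of the 10 genes in the parent (grey), subclone1 (orange) and subclone2 (blue), 1 library each; lines are 95% Poisson intervals and open circles genes not listed. FGA, FGB, FGG and SAA1 lie between 3.60 and 14.5 RPKM in the subclones and at 1.66 or less in the parent.

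Across the set, the level of most genes was low. In the parent 5 of the 10 genes were listed, in subclone1 9 and in subclone2 8, and their reads summed to 51, 424 and 236. In the parent the order was FGB, FGA, ORM1, FGG and SERPINA1, with overlapping intervals between neighbours. In subclone1 FGB stood above all others, followed by FGA, SAA1 and FGG, whose intervals overlapped, then by ORM1, SAA2, SERPINA1, HP and LBP. In subclone2 FGB, SAA1, FGA and FGG followed each other with overlapping intervals, and then came ORM1, whose interval just reached that of FGG, SAA2, LBP and SERPINA1. Even the 14.5 RPKM of FGB in subclone1 was at percentile 58.3 of the 11370 genes with a mean of 1 RPKM or more, and FGA, at percentile 4.6 in the parent, was at 35.0 in subclone1.

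Set beside all genes, 4 of the 5 genes of the set with a mean of 1 RPKM or more were at least 2-fold higher in subclone1 than in the parent (SAA1, FGA, FGB and FGG), where 4.90% of the 11370 genes were, and 0 were at least 2-fold lower, where 1.82% of genes were. In subclone2 the counts over the parent were again 4 higher and 0 lower, against 5.33% and 2.16% of all genes. Of subclone2 over subclone1, 0 were higher and 1, FGB, was lower, against 1.42% and 1.39% of all genes. The set was chosen on these ratios, and SAA1 and FGG reach a mean of 1 RPKM only through the subclones, so nothing is read from the shares. Among these genes the ratios over the parent placed FGA at percentile 99.2 in subclone1 and 98.5 in subclone2, and FGB at 99.6 and 98.1.

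The median log2 ratio of these 5 genes over the parent was 3.05 in subclone1, or 2.40 with SAA1 taken against its floor of 3 reads. In subclone2 it was 1.91, and over all 11370 genes the medians were 0.00 and 0.04. For subclone2 over subclone1 it was -0.49, against 0.03. The comparisons of both subclones use the same parent library, so any peculiarity of that library enters both.

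**Figure D4:**
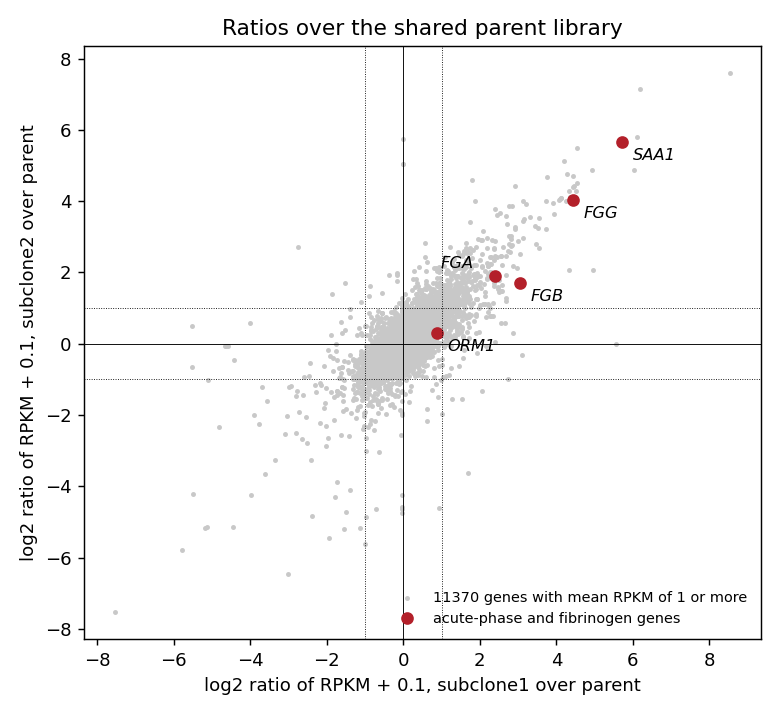
Log2 ratio of RPKM plus 0.1 of subclone1 (x axis) and subclone2 (y axis) over the parent for 11370 genes (grey) and the 5 genes of the set with a mean of 1 RPKM or more (red); dotted lines mark 2-fold. Both axes share the parent library, which by itself draws points along the diagonal, and FGB lies below the diagonal at 3.05 and 1.70.

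The other genes of the response were taken from lists assembled with earlier results of these data known, and are described by counts. Of 23 other positive acute-phase genes, 19 were listed and 11 had a mean of 1 RPKM or more. Of these 11, 6 were at least 2-fold higher and 0 lower in subclone1 than in the parent, and 7 were higher and 1 lower in subclone2, with median log2 ratios of 1.55 and 1.45. Over all genes the shares were 4.90% higher and 1.82% lower in subclone1 and 5.33% and 2.16% in subclone2. C3, CFB and LRG1 lay under 1 RPKM in the parent and entered the 11 through the subclones, so nothing is read from these counts. FTL, the ferritin light chain, had by far the highest level and changed by less than 2-fold, at 12217, 13183 and 12257 RPKM. LCN2, a siderophore-binding protein, had 37.4 RPKM in the parent, 269 in subclone1 and 543 in subclone2. C3, the central complement component, had 0.917, 8.80 and 11.1 RPKM, and CFB, the complement factor B, 0.926, 4.92 and 5.44 RPKM. CP, the copper carrier ceruloplasmin, had 42.8 RPKM in the parent, 125 in subclone1 and 117 in subclone2. LRG1 had 0.376, 1.83 and 3.45 RPKM, and SERPINA3, an inhibitor of cathepsin G, 1.09, 3.86 and 1.56 RPKM. SERPINA3 was among the 6 of subclone1 but not among the 7 of subclone2, which also held FGL1 and C4BPA. The lower gene was HAMP, the iron hormone hepcidin, on 3, 6 and 1 reads, with a ratio of subclone2 to the parent of 0.317 (0.00603 to 3.94). Where FGB was lower in subclone2 than in subclone1, LCN2 was 2.02-fold higher (1.87 to 2.18).

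Negative acute-phase genes were counted in the same way. Of 12, 9 were listed and 5 had a mean of 1 RPKM or more. Of these 5, 2 were higher (ALB and TF) and 2 lower (RBP4 and ITIH2) in subclone1 than in the parent. In subclone2, 1 was higher (ALB) and 0 were lower. Over all genes the shares were 4.90% higher and 1.82% lower in subclone1 and 5.33% and 2.16% in subclone2. With 5 genes, nothing is read from these counts. ALB was 20.1-fold higher in subclone1 (13.5 to 31.4) and 28.0-fold higher in subclone2 (18.8 to 43.5). TF, which encodes the iron carrier transferrin, had 5.71 RPKM in the parent, 30.3 in subclone1 and 5.88 in subclone2. RBP4, the plasma carrier of retinol, had 6.87, 1.15 and 3.60 RPKM, and ITIH2, a carrier chain of hyaluronan, 34.8, 11.3 and 53.2 RPKM. AHSG, which encodes fetuin-A, had 9, 7 and 7 reads.

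The genes of the gp130 cytokine pathway were followed by their mRNA alone, and the activity of the pathway was not measured. Of the 20 genes considered 19 were listed and 14 had a mean of 1 RPKM or more. Of these 14, 0 were at least 2-fold higher and 0 lower in subclone1 than in the parent, against 4.90% and 1.82% of all genes. In subclone2, 0 were higher and 1 lower, against 5.33% and 2.16%. In a list of this size such counts lie near those shares, so nothing is read from them. The one lower gene was CISH, an inhibitor of cytokine signalling, at 6.44, 4.75 and 3.15 RPKM. IL6 was not listed in any library. IL6R, the interleukin-6 receptor, had 11.6 RPKM in the parent, 10.7 in subclone1 and 12.3 in subclone2, and IL6ST, which encodes gp130, had 37.9, 28.7 and 28.3 RPKM. STAT3 had 23.9, 23.1 and 26.6 RPKM. The kinase gene JAK1 had 55.8, 70.1 and 68.8 RPKM, PTPN11, a phosphatase that binds gp130, 48.6, 42.9 and 44.6 RPKM, and PIAS3, an inhibitor of STAT3, 24.03, 25.8 and 25.9 RPKM. STAT3, JAK1, PTPN11 and PIAS3 all changed by less than 2-fold. Its target SOCS3, a feedback inhibitor, had 5.84, 10.9 and 9.09 RPKM, which was 1.87-fold higher in subclone1 than in the parent (1.23 to 2.88) and 1.56-fold higher in subclone2 (1.01 to 2.43), short of 2-fold.

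The interleukin-1, tumour necrosis factor and NF-kB list had 20 genes, all listed and 19 with a mean of 1 RPKM or more. In subclone1, 1 was at least 2-fold higher than in the parent (IL1A) and 1 lower (REL), against 4.90% and 1.82% of all genes. In subclone2, 3 were higher (IL1A, IL1B and NFKBIZ) and 0 lower, against 5.33% and 2.16%. IL1A lay under 1 RPKM in the parent and entered the 19 through the subclones, so nothing is read from these counts. IL1A, which encodes interleukin-1 alpha, had 0.908, 2.95 and 3.24 RPKM, and IL1B, which encodes interleukin-1 beta, 5.06, 9.99 and 16.7 RPKM. NFKBIZ, a nuclear co-factor of NF-kB, had 7.36, 12.3 and 18.0 RPKM. REL, an NF-kB subunit, had 2.24, 0.837 and 1.14 RPKM. The receptor gene TNFRSF1A, at 190 RPKM in the parent, 231 in subclone1 and 256 in subclone2, and the kinase gene IRAK1, at 168, 144 and 134 RPKM, were the highest of the list and changed by less than 2-fold.

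Liver transcription factors were listed for 10 of 11 genes, 8 of them with a mean of 1 RPKM or more. CEBPD, a C/EBP factor itself induced in the acute phase, was higher in both subclones, at 12.1 RPKM in the parent, 27.2 in subclone1 and 32.0 in subclone2. It was 2.24-fold higher in subclone1 than in the parent (1.57 to 3.25) and 2.64-fold higher in subclone2 (1.87 to 3.79). FOXA1 was higher in subclone2, at 7.63, 8.96 and 21.8 RPKM. CEBPA at 35.3, 40.5 and 49.3 RPKM, CEBPB at 28.5, 31.5 and 30.3, CEBPG at 22.8, 20.7 and 24.9, FOXA2 at 20.5, 21.8 and 22.0 and HNF4A at 11.7, 11.9 and 16.0 changed by less than 2-fold.

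**Figure D5:**
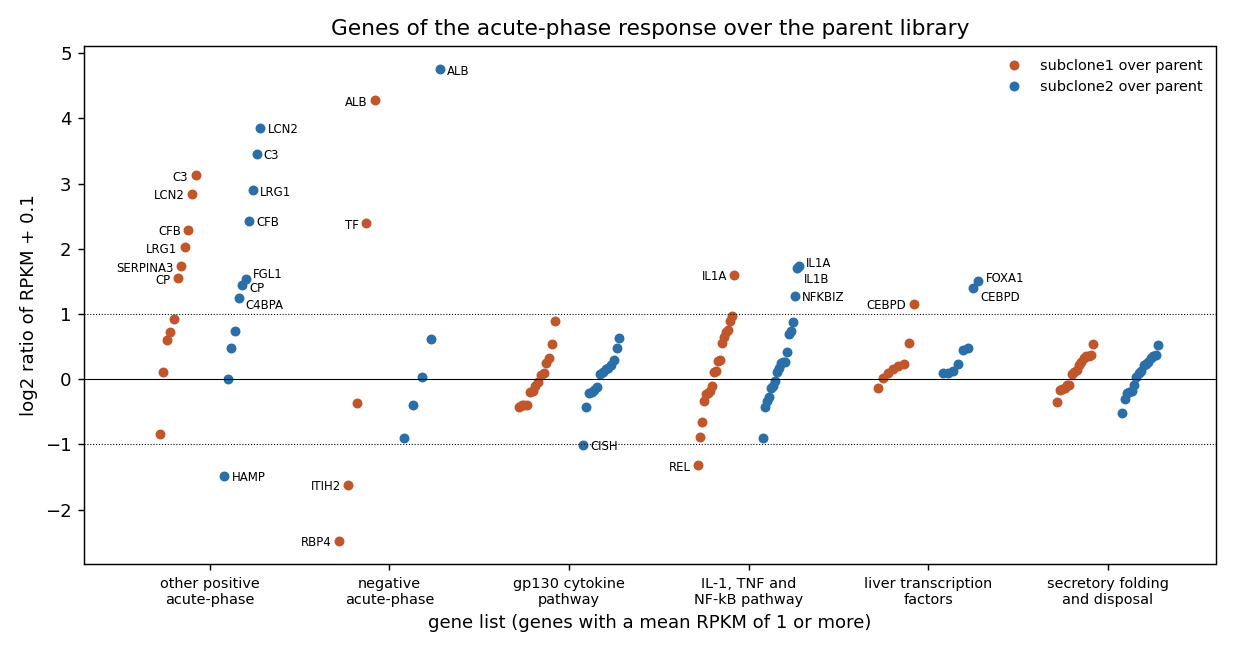
Log2 ratio of RPKM plus 0.1 over the parent (y axis) for genes with a mean of 1 RPKM or more in 6 lists (x axis), subclone1 in orange and subclone2 in blue, with genes past 2-fold (dotted lines) named. The other positive acute-phase genes reach up to 3.13 in subclone1 and 3.86 in subclone2, while the gp130 list stays within 2-fold apart from CISH.

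Receptors and partners of these proteins were listed for 15 of 21 genes, 9 with a mean of 1 RPKM or more, and 5 of the 9 were at least 2-fold higher in subclone1 than in the parent, against 4.90% of all genes. F2 and ITGB3 lay under 1 RPKM in the parent and entered the 9 through the libraries in which they were higher, so nothing is read from the share. F2, the thrombin gene, whose product cuts fibrinogen into fibrin, had 0.773 RPKM in the parent, 3.33 in subclone1 and 2.62 in subclone2. LRP1, a clearance receptor for protease and inhibitor complexes, had 16.2, 35.4 and 39.4 RPKM. ICAM1, an adhesion molecule that also binds fibrinogen, had 39.0, 84.5 and 75.8 RPKM, and ITGA5 had 39.99, 80.9 and 57.2 RPKM. Of subclone2 over the parent, 2 were higher (F2 and LRP1) and 1 lower (ITGB3), against 5.33% and 2.16% of all genes. Nothing is read from these counts either. ITGB3 encodes the beta subunit of a fibrinogen receptor of platelets and other cells. TLR4, which senses the lipopolysaccharide that LBP carries, had 2.002, 1.31 and 2.82 RPKM and was 2.15-fold higher in subclone2 than in subclone1 (1.42 to 3.30). The 16 genes of secretory folding and disposal, highest among them CALR, HSP90B1, P4HB, HSPA5, CANX and PDIA4, were all listed. Their median log2 ratio was 0.12 in both subclones over the parent, and 0 passed 2-fold in any comparison. Of all genes, at most 5.33% were higher and 2.16% lower in any comparison, so nothing is read from this count.

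The genes beside the members on their chromosomes were looked at as local comparisons. FGB, FGA and FGG span 50 kb. PLRG1, a splicing factor gene 12.5 kb from FGB, had 39.8 RPKM in the parent, 34.2 in subclone1 and 31.4 in subclone2, a fold of 0.861 in subclone1 (0.727 to 1.02) and 0.789 in subclone2 (0.665 to 0.936). It was thus not higher in either subclone, unlike the fibrinogen genes. On the other side, LRAT, the lecithin retinol acyltransferase gene, had 4, 24 and 33 reads, at 0.182, 1.06 and 1.42 RPKM. Its GENCODE span runs from 154626945 to 154753118, and the 14.0 kb to FGG is measured from the near end of that span. Which part of the span gave the reads is not known. LRAT was 5.84-fold higher in subclone1 than in the parent (2.01 to 23.2) and 7.84-fold higher in subclone2 (2.79 to 30.5). The other listed neighbours, DCHS2 and RBM46, had at most 4 reads in any library.

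Beside SERPINA1, 6 of 12 genes in and beside the serpin cluster were listed. SERPINA5, the protein C inhibitor, had 0.578 RPKM in the parent, 3.85 in subclone1 and 0.915 in subclone2, and SERPINA3 stood highest in subclone1 as given above. SERPINA10 had 2, 7 and 2 reads, SERPINA4 0, 3 and 0 reads, SERPINA6 0, 9 and 6 reads and PPP4R4 0, 5 and 3 reads. All 6 had their most reads in subclone1, as SERPINA1 had with its 1, 4 and 1 reads, but several on few reads. SERPINA10 in subclone1 over the parent was 3.41 (0.649 to 33.6), and SERPINA6 in subclone2 over subclone1 was 0.650 (0.1905 to 2.05). The share of all genes with most reads in subclone1 was not counted, so nothing is read from this order. Around SAA1 and SAA2, 4 of 8 neighbouring genes had a mean of 1 RPKM or more (LDHA, GTF2H1, SAAL1 and HPS5). Around HP, 5 of 8 did (IST1, DHX38, TXNL4B, ZFHX3 and DHODH). Of both sets of neighbours, 0 passed 2-fold in any comparison. Of all genes, at most 5.33% were higher and 2.16% lower in any comparison, so nothing is read from this count.

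The genes whose ratios over the parent lay nearest to those of a member were found by the distance between the pairs of log2 ratios, over 3 libraries. For FGA they were PMS2L2, GATSL3 and SLC2A9 at distances of 0.02, 0.03 and 0.13. For FGB they were PPP1R3C, CARD16 and PTGIS at 0.42, 0.44 and 0.46, and for FGG C1orf192, C6orf105 and TM4SF4 at 0.11, 0.19 and 0.27. For SAA1 they were LGALS2, PRAME and SNORD10 at 0.42, 0.87 and 1.11, each listed at 0 in the parent, and for ORM1 IQGAP2, CLK4 and IFT46 at 0.02, 0.03 and 0.03. With 3 libraries such a likeness is a description of 2 ratios and of nothing else.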

How the data were processed

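Total RNA was made into Illumina TruSeq libraries, 1 for each of 3 cultured lines. The authors deposited RPKM values per gene, named by Entrez number and symbol. The submitters' processing notes name hg19, and the aligner, counter, annotation, strand setting and treatment of shared reads are not given in the sources used here. The deposited tables hold 0 per-sample columns that were not used.

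Groups came from sample titles. An RPKM is a whole number of reads divided by gene length and library total. Totals were fixed by the 653 and 625 genes whose reads equalled those of the parent and from 435 genes listed in the parent alone, of which 81.7% had whole lengths at the chosen total, against 39.5% at the doubled total. Each gene took the smallest length with whole reads, multiplied where needed to reach its longest coding sequence. Whole reads were given to 16095 genes (99.7%), which held 98.2% of each total. The recovery was tested on simulated data. Intervals were exact Poisson for RPKM and exact Clopper-Pearson for ratios, at 95%. They cover counting error alone, since reads from 1 molecule were not told apart.

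Log2 ratios used RPKM plus 0.1. Genes with a mean of 1 RPKM or more (11370 of 16149) formed the background, with 2-fold as the size counted and no test. The members and gene lists were chosen with earlier results of these data known. All 10 members were named. Of each list up to 6 genes were named, those past 2-fold by size and then those of highest RPKM, and for each member with a mean of 1 RPKM or more the 3 genes nearest in their ratios. Genes named beyond this rule (HNF4A, IL6, IL6R, SOCS3, HAMP, FTL, FGL1, C4BPA, ITGAV, the serpins of low reads, LRAT, DCHS2, RBM46, PPP4R4, ORM2, HPR and SAA4) were chosen after their values were seen. Gene places, coding sequences and transcripts came from GENCODE release 29, and promoters from RefSeq. A planned motif and some planned genes are not reported here. Protein identity, also planned, was replaced by identity of coding sequences. Alternatives were 2 other pseudocounts, 5 rescalings, 2 other filters and 1.5-fold in place of 2-fold. Python 3.11.15, numpy 2.4.6, pandas 2.3.3, scipy 1.17.1, Biopython 1.88 and matplotlib 3.10.9 were used.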

Additional observations from a re-analysis of the deposited data

Results flagged for a closer look

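ITGB3, which encodes the integrin beta 3 subunit and pairs with ITGAV in a receptor for fibrinogen, moved in opposite directions in the subclones. It had 0.819 RPKM in the parent (18 reads), 2.57 in subclone1 (58 reads) and 0.216 in subclone2 (5 reads). Its log2 ratio over the parent came to 1.54 in subclone1 and -1.54 in subclone2. The folds were 3.14 (1.82 to 5.66) and 0.264 (0.0766 to 0.738). ITGAV itself had 58.6, 64.5 and 52.7 RPKM. The difference between the subclones was not tested, since each line has 1 library, and both ratios share the parent library.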

How the results depend on the processing

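Of 60 counts of members under the alternatives, 56 stayed within 1.5 times the reported count. The 4 that moved all came from a changed filter on mean RPKM. No log2 ratio of a member past 2-fold changed sign. A pseudocount cannot change a sign, and the 5 rescalings shifted these ratios by far less than 2-fold, so nothing is read from this. Counts of members lower than in the parent, or higher in subclone2 than in subclone1, were 0 at every setting and add little to the 56. For subclone2 over subclone1 the ratios of SAA1 and LBP, -0.03 and -0.02, became 0.09 and 0.05 after division by ACTB and 0.08 and 0.04 by GAPDH. Without the filter on mean RPKM, 8 members were at least 2-fold higher in subclone1 than in the parent and 3 were lower in subclone2 than in subclone1. The 8 include HP and LBP, on 1 read against 0, and SERPINA1, on 4 reads against 1. The 3 include HP and SERPINA1, so nothing is read from either count. At this setting 1523 of 16149 genes were higher in subclone1 than in the parent, and 902 were lower in subclone2 than in subclone1. With a mean of 5 RPKM or more, 1 member was higher in subclone1 and 1 in subclone2 than in the parent, since fewer genes entered. With a pseudocount of 1, the log2 ratio of FGB in subclone1 over the parent was 2.54, and those of FGG were 2.36 in subclone1 and 2.03 in subclone2. Over all alternatives the ratio over the parent ranged from 1.80 to 2.48 for FGA, 2.54 to 3.12 for FGB and 2.61 to 9.0 for SAA1 in subclone1, and from 1.38 to 1.99, 1.31 to 1.76 and 2.58 to 8.97 in subclone2, the width for SAA1 coming from the pseudocount against a value of 0. FGB in subclone2 over subclone1 ranged from -1.40 to -1.23.

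The background counts moved more. Genes higher and lower in subclone1 than in the parent were 557 and 207 as reported, 347 and 117 with a pseudocount of 1, 1523 and 884 with no filter, 233 and 71 with a mean of at least 5, 1317 and 848 at 1.5-fold, and 449 and 328 after division by ACTB. In subclone2 over the parent they were 606 and 246, 380 and 150, 1553 and 941, 253 and 93, and 1444 and 830. In subclone2 over subclone1 they were 161 and 158, 80 and 77, 842 and 902, 43 and 46, and 540 and 467, with 216 and 122 after division by ACTB and 211 and 126 by GAPDH.

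No paired analysis was possible because every line was sequenced once, which also meant that leaving out a library could not be tried. Depth limits most of the set: CRP was not listed, HP and LBP at most 1, and SAA2, ORM1 and SERPINA1 at most 8.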
